A study of Mus musculus with 1479 samples.

Results

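Basement membrane genes were followed through 1479 single cells of the adult mouse urinary bladder, across the 11 cell clusters that the sample labels give. The 10 genes, of 46517 gene rows in the table, were chosen by name: the laminin chains Lama2, Lama4, Lama5, Lamb1, Lamb2, Lamc1 and Lamc3, the nidogens Nid1 and Nid2, and Hspg2, which encodes perlecan. Male mice of 10 to 20 weeks came from 5 lines: C57BL6 without a reporter (12.8% of the cells), and PdgfrbGFP (54.8%), Cspg4dsRED (13.7%), PdgfraGFP (9.94%) and Acta2GFP (8.72%), in which a fluorescent protein is driven by the regulatory sequence of the named gene, or sits in the Pdgfra locus. Every line was on the C57Bl6/J background, crosses between lines were also in use, and no label ties a cell to an animal. Cells were sorted for a reporter or for PDGFR-α or PDGFR-β antibody and against CD31, an endothelial antigen, and each was made into a Smart-seq2 library, a full-length cDNA method; elastase was added to the dissociation of Acta2GFP tissue.

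Cluster 10 holds 8.45% of the cells, the vascular mural cells (smooth muscle cells and pericytes of the vessel wall), cluster 5 holds 76 sub-epithelial fibroblasts, and the 9 other fibroblast clusters hold 1278 cells. The cell type names are the study's and were set against defining genes. Per line, the summed level of 8 mural genes ran from 7623 to 12756 in cluster 10 and from 435 to 751 in cluster 5. It ran from 63.1 to 170 in the 9 other fibroblast clusters. Of the 8 in cluster 5, Acta2 (484), Tagln (76) and Myh11 (52.2) had the highest means over cells. Mcam, Notch3, Rgs5 and Des had means under 1 there. The summed level of 4 sub-epithelial genes ran from 993 to 3018 in cluster 5 and from 36.5 to 125.1 in the 9. A level is what a gene takes of every 500000 endogenous reads in a cell. It was averaged first within a line, given at least 3 cells, and next across lines, and each ± is the SD across lines unless named otherwise. Reads per cell ran from 50276 to 1446059, with a median of 130406 in cluster 10 and of 225774 in the 10 fibroblast clusters. Cluster 10 was present in 4 lines (65 cells of Cspg4dsRED, 45 of PdgfrbGFP, 12 of Acta2GFP and 3 of C57BL6), and cluster 5 also in 4 (36 of PdgfrbGFP, 22 of PdgfraGFP, 15 of C57BL6 and 3 of Cspg4dsRED), so every C57BL6 value of cluster 10 and every Cspg4dsRED value of cluster 5 rests on 3 cells.

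Laminins are secreted trimers of an α, a β and a γ chain that assemble into a sheet against the cell surface, where integrins and dystroglycan hold them. Nidogens link that sheet to the collagen IV network, and perlecan, a heparan sulfate proteoglycan, binds both and stores growth factors. In the bladder such sheets lie under the urothelium, around each smooth muscle cell and around vessels, and the α chain sets which receptors a laminin can engage. The α2 chain is best known from muscle and nerve, and the α4 and α5 chains from vessel walls.

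Promoters of 3 genes that passed the test between the mural cells and fibroblasts (Lama5, Lamb1 and Nid1) and of Lamb2, which did not, are shown so that they can be read beside the levels. RefSeq promoter windows, 250 bases before to 50 after the transcription start in GRCm38.p6, were at hand for 6 of the 10 genes (Lama2, Lama5, Lamb1, Lamb2, Nid1 and Hspg2). The stretches below hold only bases upstream of the outermost annotated start of the gene, 5′ to 3′ on the strand of the gene, and capitals mark the GC box, GGGCGG on either strand. They are from chr2:180225860-180226109 (minus) for Lama5, chr12:31265043-31265233 (plus) for Lamb1, chr13:13437352-13437550 (plus) for Nid1 and chr9:108479612-108479735 (plus) for Lamb2.
Lama5: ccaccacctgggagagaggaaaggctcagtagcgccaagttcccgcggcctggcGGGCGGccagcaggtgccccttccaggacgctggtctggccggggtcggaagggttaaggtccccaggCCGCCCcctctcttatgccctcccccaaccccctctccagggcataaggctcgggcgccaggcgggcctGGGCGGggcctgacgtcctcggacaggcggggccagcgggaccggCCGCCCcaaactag
Lamb1: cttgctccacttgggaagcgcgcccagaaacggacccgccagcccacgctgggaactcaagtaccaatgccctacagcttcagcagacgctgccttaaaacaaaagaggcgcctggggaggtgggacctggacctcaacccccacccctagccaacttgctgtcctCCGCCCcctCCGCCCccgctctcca
Nid1: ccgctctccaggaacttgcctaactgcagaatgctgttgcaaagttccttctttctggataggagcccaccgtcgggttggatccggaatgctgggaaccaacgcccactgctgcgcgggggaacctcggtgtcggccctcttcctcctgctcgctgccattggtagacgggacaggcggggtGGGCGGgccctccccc
Lamb2: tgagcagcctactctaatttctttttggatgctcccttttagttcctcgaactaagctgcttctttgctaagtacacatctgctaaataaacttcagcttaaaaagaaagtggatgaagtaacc
The Lama5 stretch held 4 GC boxes, that of Lamb1 2, that of Nid1 1 and that of Lamb2 none. Hspg2, which also did not pass that test, had 5 GC boxes in its stretch, not printed here. Its window had a GC content of 70.3%. Over the whole windows, 5 of the 6 genes had at least 1 GC box, against 35.9% of 27025 mouse promoters of that length, and GC content ran from 44% for Lamb2 to 72.7% for Lama5 (median of all promoters 52.7%). None of the 6 held the TATA box letters TATAAA, which 14.2% of promoters hold. The CArG box, the site of serum response factor, which drives many smooth muscle genes, was found in 1 of the 6 and in 1.57% of all promoters. It lies upstream of the Lama2 start at chr10:27616962-27616991 (minus strand), inside an intron of a longer annotated Lama2 transcript, shown here with the box in capitals.
Lama2: aaccaaggacCCTTTAAAGGcccaggcctg
A match of letters is a description and was not tied to any level below.

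The mural cells differed from the fibroblasts first in the α chain. Lama5 (ENSMUSG00000015647, chr2:180176373-180225859 of GRCm38) had a level of 157.98 in Cspg4dsRED, 208.6 in Acta2GFP, 214.7 in PdgfrbGFP and 785 in C57BL6 mural cells. In the fibroblasts of the 5 lines it ran from 0.122 to 0.418. The groups lay far apart, and 3 of the 4 lines gave close mural levels, with the 3 cells of C57BL6 above them. The mean was 341.6 ± 296.8 (SD, n = 4 lines) against 0.325 ± 0.124 (n = 5). In counts summed per class and line, with the line as a block, the log2 fold change was 9.89 ± 0.78 (SE; adjusted p = 9.39e-08, edgeR quasi-likelihood test with Benjamini-Hochberg adjustment over 13861 genes; higher in 4 of 4 lines). Without C57BL6 it was 9.64 with an adjusted p of 8.19e-04.

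Of the 10 genes, Lama5 was thus the only 1 that passed the test (an adjusted p under 0.05) in the upward direction, a direction in which 2.48% of all genes tested passed, and 6 passed downward, where 6.18% of all genes did. The clusters were drawn by the authors from these same reads, so a p here tells whether a difference recurs from line to line and is no independent evidence that the classes differ. Fewer reads per cell also stand behind every mural value. The median log2 fold change of the 10 genes was -2.34, and that of all genes tested was -0.81. Relative to that shift the split of calls depended on the scaling: 28.7% of the 1200 genes that passed were higher in cluster 10, and 59.6% of 871 when the median gene was set to 0. Under that setting Lama5 (log2 fold change 10.70), Lamb1 (-3.85) and Nid2 (-5.18) passed among the 10, and Lama2, Lama4, Lamc1 and Nid1 did not, with the same direction.

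**Figure D1:**
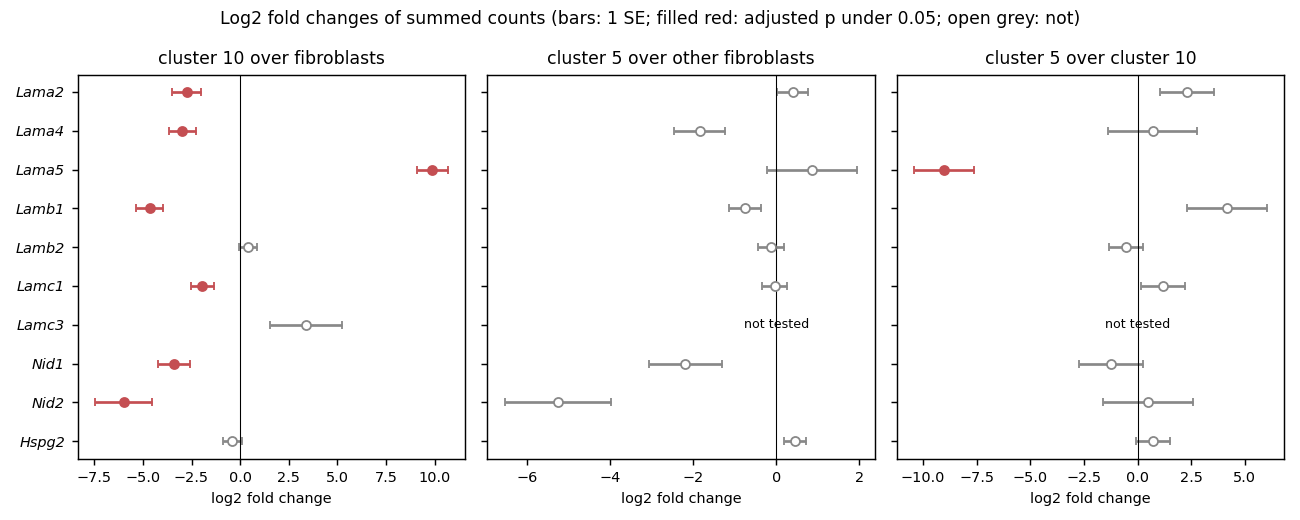
Log2 fold change (x axis) of each gene (y axis) in counts summed per class and line, for cluster 10 over the fibroblast clusters, cluster 5 over the other fibroblast clusters and cluster 5 over cluster 10; points are edgeR estimates, bars are 1 SE, and filled red points had an adjusted p under 0.05. Lama5 stands at 9.89 in the left panel and at -9.03 in the right one, while 6 genes lie below 0 with filled points in the left panel and none is filled in the middle panel.

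The other α chains were lower in the mural cells. Lama2 (ENSMUSG00000019899, chr10:26980036-27619758), the α2 chain, had a level of 10.5 in Acta2GFP, 13.2 in Cspg4dsRED, 22.2 in PdgfrbGFP and 131.4 in C57BL6 mural cells, and of 152.7 to 233.4 in fibroblasts. The C57BL6 value, from 3 cells, was the highest and still lay under every fibroblast line. The log2 fold change was -2.74 ± 0.74 (SE; adjusted p = 0.0302, lower in 4 of 4 lines). Lama4 (ENSMUSG00000019846, chr10:38965515-39110188), the α4 chain, ran from 10.6 to 46.7 in mural cells and from 131.9 to 241.5 in fibroblasts, with no overlap. Its log2 fold change was -2.98 ± 0.70 (SE; adjusted p = 0.012, lower in 4 of 4 lines). Both calls depended on which lines entered: without Acta2GFP the adjusted p was 0.131 for Lama2 and 0.0776 for Lama4, without Cspg4dsRED 0.163 and 0.0861, and without PdgfrbGFP 0.103 for Lama2, all with log2 fold changes between -2.88 and -2.27. Without C57BL6 both passed (adjusted p = 0.00589 and 0.018), as did Lama4 without PdgfrbGFP (0.0267). With no block for the line, the adjusted p of Lama2 was 0.115.

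Set against each other per kilobase of exon, the α chains changed places. In the mural cells Lama5 made up 84.3% ± 4.34 (SD, n = 4 lines) of the α chain reads per kilobase, with lines between 78.3% and 88.5%, Lama4 9.68% ± 6.35 and Lama2 5.99% ± 3.11. In the fibroblast clusters as a whole Lama4 made up 56% ± 6.23, Lama2 43.9% ± 6.22 and Lama5 0.111% ± 0.0428 (n = 5). The lengths matter here, since with the longest annotated transcript in place of all exons the mural share of Lama5 was 74.3% and that of Lama4 16.7%. Cell by cell, the α chain with the highest level per kilobase was Lama5 in 76 mural cells (60.8%), Lama4 in 23 and Lama2 in 12, and 14 had no read of the 3 chains. The 3 C57BL6 cells lay outside the other lines for each chain, with shares of 88.5% for Lama5 (78.3% to 85.7% in the others), 1.13% for Lama4 (9.26% to 16.1%) and 10.3% for Lama2 (2.99% to 5.64%). They were unlike each other, with Lama5 levels of 670, 0 and 1685 and Lama2 levels of 2.62, 392 and 0 in the same order.

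**Figure D2:**
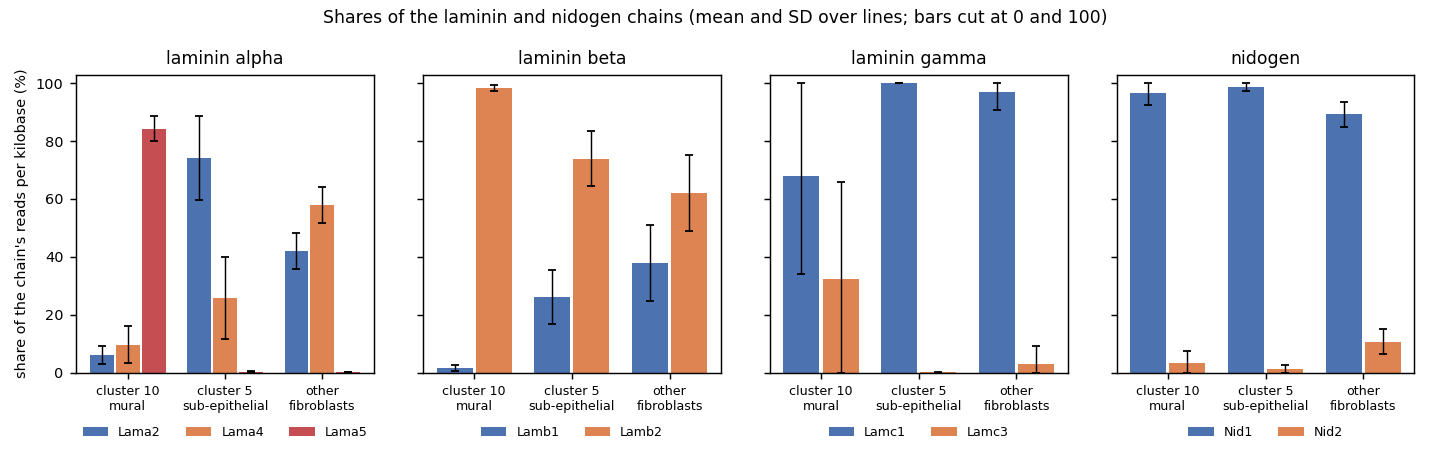
Share (y axis, percent) of each chain in the reads per kilobase of its kind, laminin α, laminin β, laminin γ and nidogen, for cluster 10, cluster 5 and the 9 other fibroblast clusters; bars are means over lines, error bars are the SD over 4, 4 and 5 lines. Lama5 takes 84.3% of the α reads in cluster 10, Lama2 74.1% in cluster 5 and Lama4 57.9% in the other fibroblasts, and the wide bar for Lamc3 in cluster 10 spans lines from 0 to 73.9%.

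Among the β chains, Lamb1 was lower in the mural cells and Lamb2 did not pass the test. Lamb1 (ENSMUSG00000002900, chr12:31265234-31329644), the β1 chain of most embryonic and many adult laminins, had mural levels of 2.88 in C57BL6, 3.71 in Cspg4dsRED, 9.63 in PdgfrbGFP and 20.1 in Acta2GFP, and fibroblast levels of 125.5 to 313.3. All 4 mural values lay far below the lowest fibroblast line. The log2 fold change was -4.66 ± 0.71 (SE; adjusted p = 2.46e-04, lower in 4 of 4 lines), and Lamb1 passed under each of the 12 alternative fits that were run, as did Lama5. Lamb2 (ENSMUSG00000052911, chr9:108479736-108490530), the β2 chain known from neuromuscular junctions, kidney and vessels, had mural levels of 164.5 in C57BL6, 354 in PdgfrbGFP, 382 in Cspg4dsRED and 397 in Acta2GFP against 178.4 to 327.5 in fibroblasts. The ranges overlapped, through C57BL6, and the log2 fold change of 0.41 ± 0.48 (SE; adjusted p = 0.738, higher in 3 of 4 lines) did not pass. The log2 ratio of the means over lines was 0.39 per endogenous reads and -0.40 per ERCC spike-in reads. On both scales Lamb2 was higher in the same 3 lines and lower in the 3 cells of C57BL6. In shares, Lamb2 made up 98.4% ± 1.05 of the β chain reads per kilobase in mural cells and 62.8% ± 12.7 in fibroblasts, with no line of one class inside the range of the other (97% to 99.4% against 49.2% to 76.5%).

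Of the γ chains, Lamc1 was lower and Lamc3 was uneven. Lamc1 (ENSMUSG00000026478, chr1:153218922-153332786), the γ1 chain found in most laminins, ran from 37.6 to 120.9 in mural cells and from 197.5 to 330.3 in fibroblasts, with a log2 fold change of -1.94 ± 0.59 (SE; adjusted p = 0.0477, lower in 4 of 4 lines). The groups did not overlap, but the call was lost in 9 alternatives, among them each line left out, DESeq2 and the other scaling, with adjusted p-values up to 0.366. Lamc3 (ENSMUSG00000026840, chr2:31887291-31946539), the γ3 chain, had mural levels of 0 in C57BL6, 9.25 in PdgfrbGFP, 41 in Cspg4dsRED and 78.3 in Acta2GFP, and fibroblast levels of 0 to 1.92 apart from 23.1 in Cspg4dsRED. Its log2 fold change of 3.37 ± 1.86 (SE) had an adjusted p of 0.346 and, in DESeq2, a test with another model of the spread, 0.00417. Only 17 mural cells (13.6%) had a Lamc3 read, and 8 of them held 90% of the 1002 reads. The 12 cells of Acta2GFP owed their level to 1 cell, at 940.

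Lama5 was spread over more cells than Lamc3. With every cell thinned to 50000 endogenous reads, a Lama5 read was seen in 64% of mural cells (80 cells; exact Clopper-Pearson 95% interval 54.9% to 72.4%), in 3.95% of cluster 5 (3 of 76) and in 3.54% of the 9 other fibroblast clusters (45 of 1272, 2.59% to 4.71%), where 6 cells fell short of that depth. Unthinned shares were 69.6%, 21.1% and 10.9%. By line, unthinned shares ran from 60% to 83.3% in mural cells. Reads carry no molecular identifiers and the cells of several lines are pooled, so these intervals cover counting error only and not the spread between lines. The fibroblast share moved with the plate map: among fibroblasts with no mural cell in a well of the same row or column 5.15% (27 of 524) had a Lama5 read, with 1 to 4 such wells 11.7% (79 of 675), and with 5 or more 31.6% (49 cells). Plates differ in their share of mural cells, and the part of well position in the low Lama5 reads of fibroblasts was not tested. For Lamc3 the same shares were 5.73%, 3.56% and 8.39%.

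Within the mural class, the lines differed in how the Lama5 reads were distributed. The median mural cell had a Lama5 level of 191.1 in Acta2GFP (12 cells), 178.4 in PdgfrbGFP (45) and 6.24 in Cspg4dsRED (65), while the means of these lines were 208.6, 214.7 and 157.98. Over all mural cells the quartiles were 0, 50.6 and 284.3 and the highest cell reached 2421. With 10 reads as the bar, 64 mural cells held Lama5 and 11 held Lamc3. Of these, 6 held both, 58 Lama5 alone and 5 Lamc3 alone, and 56 held neither. Lamc1 at that bar was present in 4 of the 11 cells with Lamc3, and in 37 cells without it. Endothelial cells make Lama4 and Lama5 too, so their markers are given here: the summed level of 8 endothelial genes ran from 12.1 to 230 over the mural lines and from 12.2 to 25.9 in the 9 other fibroblast clusters, in cluster 10 Cldn5 (19.9), Pecam1 (14.2), Emcn (7.41), Vwf (6.51) and Tie1 (2.61) made up most of the sum averaged over cells, Cdh5, Kdr and Erg had means under 1, and the 7 mural cells without any read of the 8 genes had a mean Lama5 level of 395 (median 14.9) against 186.6 (median 65.6) in those with one. The 36 mural cells with a read of 10 urothelial genes had a mean Lama5 level of 304.8 (median 37.8) against 155.2 (median 80.7) in the 89 without, and the summed level of 8 fibroblast genes ran from 546 to 2206 over the mural lines (15151 to 21125 in the 9 other fibroblast clusters). The part of other cell types in the Lama5 level was not tested further.

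**Figure D3:**
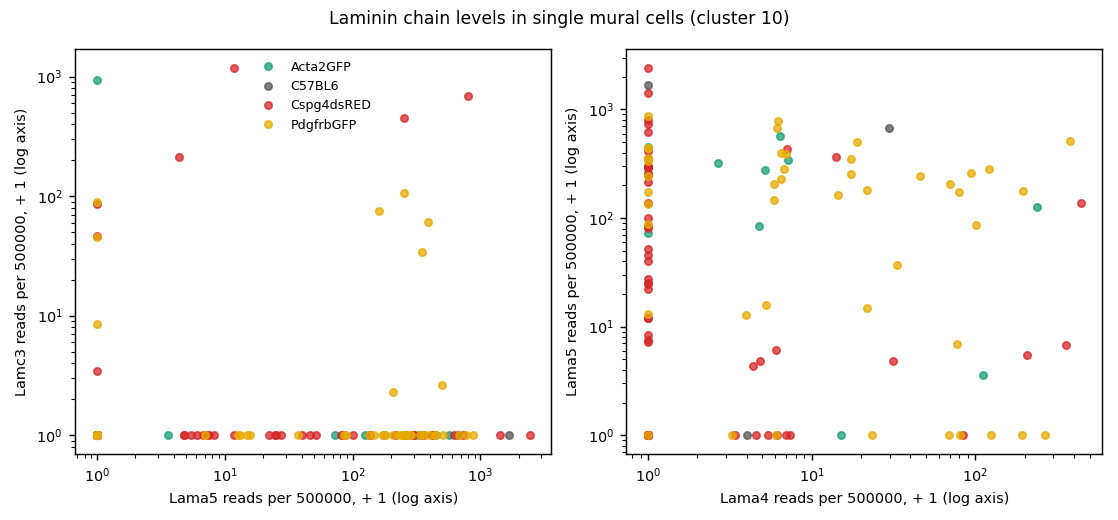
Single mural cells of cluster 10, coloured by line, as Lamc3 against Lama5 (left) and Lama5 against Lama4 (right), in reads per 500000 endogenous reads plus 1 on log axes. Cells with Lamc3 are few (11 with at least 10 reads), and 64 cells hold at least 10 Lama5 reads.

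The linkers were lower in the mural cells, while perlecan did not pass the test. Nid1 (ENSMUSG00000005397, chr13:13437551-13512269), the main nidogen of most basement membranes, had mural levels of 4.85 in Acta2GFP, 11 in Cspg4dsRED, 49.5 in PdgfrbGFP and 272.6 in C57BL6, against 236.7 to 621 in fibroblasts. The classes overlapped only through the 3 C57BL6 cells, which stood at 178.04, 635 and 4.39. The log2 fold change was -3.40 ± 0.82 (SE; adjusted p = 0.0145, lower in 4 of 4 lines), and without C57BL6 it was -4.35 with an adjusted p of 0.0341. With no block for the line the adjusted p of Nid1 was 0.144. Nid2 (ENSMUSG00000021806, chr14:19751265-19811787), the second nidogen, had mural levels of 0.0339 to 1.28, from 33 reads in all, against 22.9 to 45.6 in fibroblasts. Its log2 fold change was -5.99 ± 1.46 (SE; adjusted p = 0.0157, lower in 4 of 4 lines), and the adjusted p rose to 0.0712 without Acta2GFP, 0.142 without Cspg4dsRED and 0.0848 without PdgfrbGFP. Nid2 overlaps Rtraf on the other strand (42503 reads in all, against 28785 of Nid2), and in libraries that keep no strand reads of the shared bases cannot be assigned to either gene.

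Hspg2 (ENSMUSG00000028763, chr4:137468769-137570630) had mural levels of 145.3 in PdgfrbGFP, 171.1 in Cspg4dsRED, 203.6 in Acta2GFP and 300.8 in C57BL6 against 143.9 to 537 in fibroblasts. The ranges overlapped nearly in full. The log2 fold change of -0.40 ± 0.47 (SE; adjusted p = 0.732) did not pass and turned to 0.41 when the median gene was set to 0. On medians over cells, Hspg2 was lower in mural cells in 4 of 4 lines (from 4.47 to 49.5 by line against 35 to 255.3 in fibroblasts), and per ERCC reads it was so too, while mean levels were lower in 3 of 4 lines. Mural cells shared perlecan and Lamb2 unevenly: the median mural cell had a Hspg2 level of 12.4 and a Lamb2 level of 225.4, and 50 and 89 cells had at least 10 reads.

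**Figure D4:**
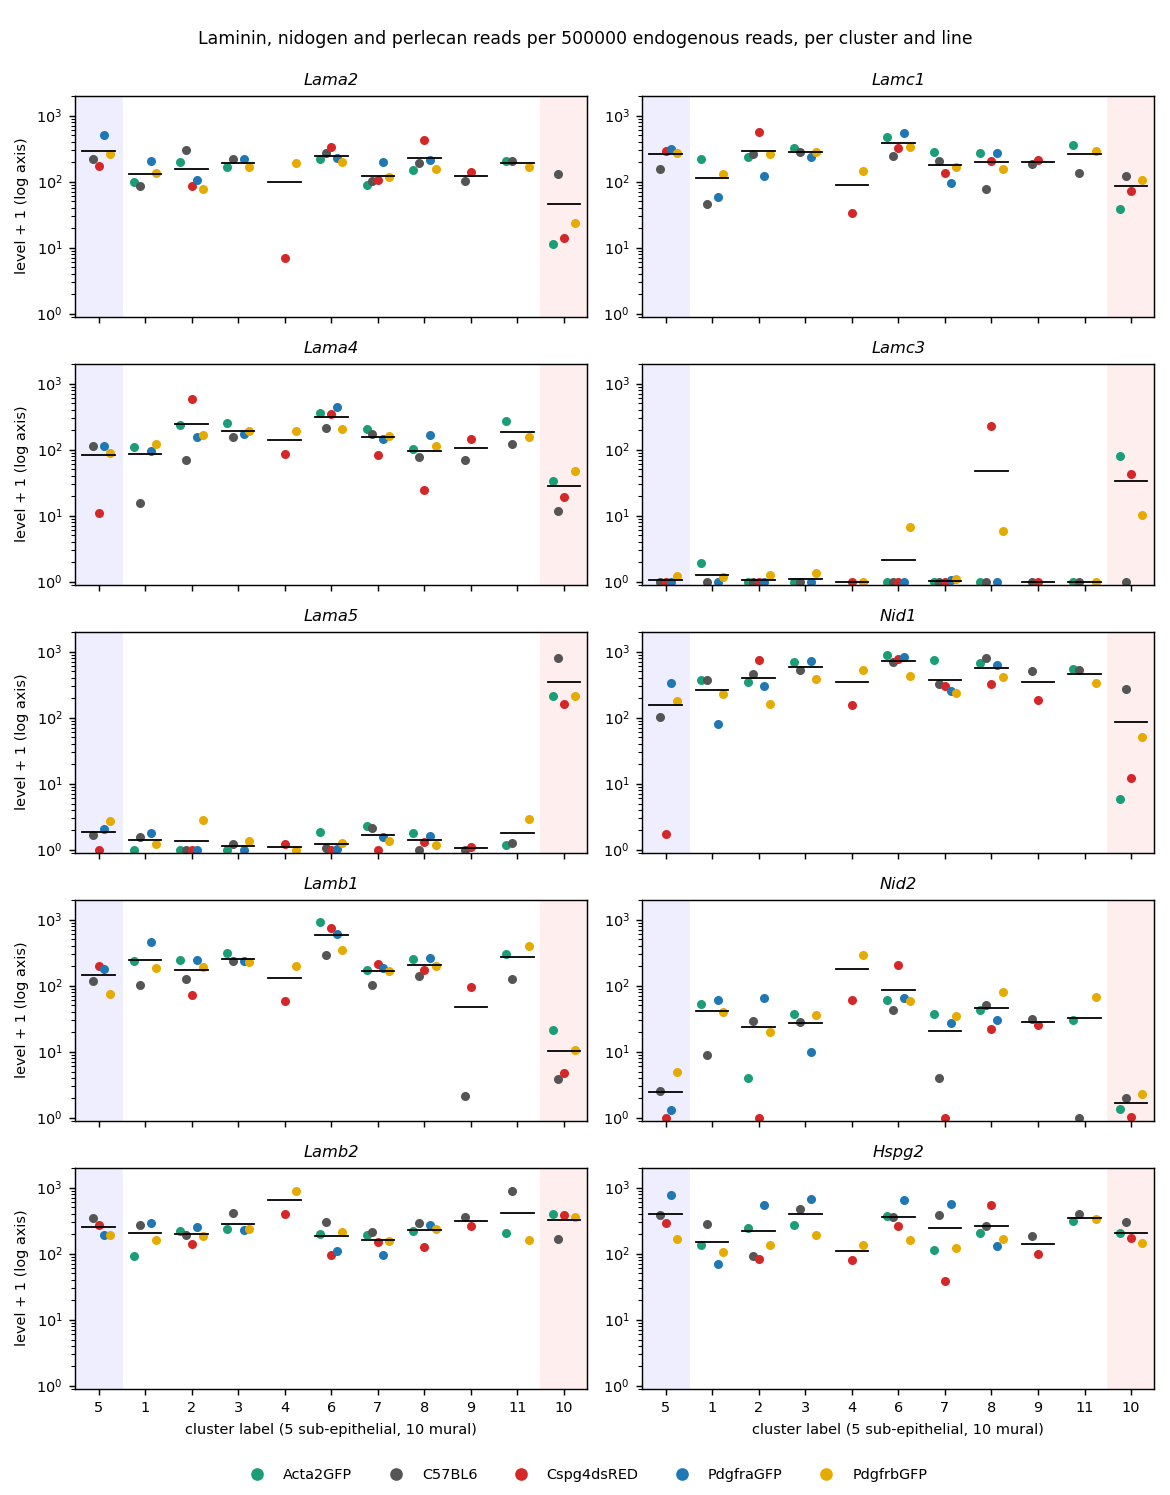
Level plus 1 (y axis, reads per 500000 endogenous reads, log axis) of the 10 genes in each labelled cluster (x axis), cluster 5 at the left on blue and cluster 10 at the right on pink; each point is the mean of a line with at least 3 cells of the cluster, and black lines are means over lines. Lama5 rises above 100 in cluster 10 alone, every line of clusters 5 and 10 lies under 5 for Nid2, and Lamb1 is highest in cluster 6.

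Sub-epithelial fibroblasts, which lie beneath the urothelium, were compared with the 9 other fibroblast clusters. None of the 9 members tested passed, while 0.458% of 13988 genes passed upward and 0.622% downward. That split moved from 42.4% to 75.3% upward with the median gene set to 0. In edgeR's quasi-likelihood test 3 members had an unadjusted p under 0.05 (Nid2, Lama4 and Nid1), as did 1458 of the 13988 genes. DESeq2 passed Nid2, among 1354 genes. Nid2 differed most: its level was 0 in Cspg4dsRED, 0.314 in PdgfraGFP, 1.5 in C57BL6 and 3.91 in PdgfrbGFP cells of cluster 5 and 24.8 to 47.7 in the other fibroblasts. The 2 ranges were far apart, with a log2 fold change of -5.25 ± 1.28 (SE; adjusted p = 0.109, unadjusted p = 0.002, lower in 4 of 4 lines). It passed in 4 of 12 alternatives (DESeq2, sums per plate and line, thinned cells, and no block for the line), with adjusted p-values from 4.79e-06 to 0.416 over all 12. A Nid2 read was seen in 9.21% of thinned cluster 5 cells (7 of 76; exact interval 3.78% to 18.1%) and in 35.5% of the other fibroblasts (451 of 1272; 32.8% to 38.2%). These intervals leave out the spread between lines, where unthinned shares ran from 0 to 80.6% in cluster 5 and from 14.8% to 72% in the others. The 80.6% came from PdgfrbGFP, with 36 of the 76 cells, and lay above every line of the others.

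Nid1 went with it in direction, at 0.697, 102.5, 176.7 and 333.6 in the Cspg4dsRED, C57BL6, PdgfrbGFP and PdgfraGFP cells of cluster 5 against 241.9 to 621 in the others, but the ranges overlapped and the log2 fold change of -2.19 ± 0.88 (SE) had an adjusted p of 0.39. The α chains tilted to Lama2: the Lama2 level was 168.7, 216.2, 264.9 and 499 in Cspg4dsRED, C57BL6, PdgfrbGFP and PdgfraGFP, above the same line's other fibroblasts in 4 of 4 lines, and the Lama4 level was 10, 86.3, 113.3 and 113.03 in Cspg4dsRED, PdgfrbGFP, C57BL6 and PdgfraGFP, below them in 4 of 4. On medians over cells and per ERCC reads Lama2 was higher in 3 of 4 lines, and the log2 ratio of the means over lines was 0.22 per ERCC reads against 0.74 per endogenous reads. Neither Lama2 nor Lama4 passed (log2 fold change 0.40 ± 0.37 and -1.84 ± 0.61, SE; adjusted p = 0.821 and 0.229), though in sums per plate and line Lama4 passed (adjusted p = 0.0214), as did Lamb1 (0.038). Lama2 made up 74.1% ± 14.4 (SD, n = 4) of the α chain reads per kilobase in cluster 5 and 42% ± 6.26 (n = 5) in the other fibroblasts, from 58.3% to 92.6% against 34.5% to 50.6% by line. Single fibroblast clusters came near it: the Lama2 share was 61.8% ± 18.6 in cluster 8 (48.7% to 93% by line) and 56.7% ± 18.3 in cluster 1 (40.2% to 80.6%), and the mean Lama4 levels of clusters 8 and 1 were 95.6 and 84.5 against 80.7 in cluster 5. Lama2 was the highest α chain in 52 of 76 cells of cluster 5, and in 534 of 1278 cells of the others, where Lama4 led in 724.

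Lamb2, Lamc1, Lamb1 and Hspg2 of cluster 5 overlapped the other fibroblasts over lines, with log2 fold changes of -0.12 ± 0.31, -0.03 ± 0.30, -0.75 ± 0.39 and 0.46 ± 0.26 (SE; adjusted p = 0.943, 0.984, 0.579 and 0.626). On medians over cells, Lamb1 was lower in 4 of 4 lines, with a log2 ratio of -2.64. On mean levels (-0.58) and per ERCC reads (-1.45) it was lower in 3 of 4. Hspg2 was above the same line's other fibroblasts in 4 of 4 lines, at 167.6 to 766, and its spread over lines was larger than the difference. Both per ERCC reads and on medians over cells, 2 of 4 lines were higher. Lama5 had at most 1.68 in a line, and Lamc3 did not pass the filter on low counts. Against the mural cells directly, in the 3 lines that hold both, Lama5 was the member of 9 tested that passed, at a log2 fold change of -9.03 ± 1.38 (SE; adjusted p = 1.41e-08, lower in 3 of 3 lines), where 0.88% of 11701 genes were called higher in cluster 5 and 1.45% lower. Lama2 and Lamb1 were higher in cluster 5 in 3 of 3 lines, at log2 fold changes of 2.30 ± 1.25 and 4.16 ± 1.87, without passing (adjusted p = 0.911 and 0.529; 0.0432 for Lamb1 in DESeq2).

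The 9 other fibroblast clusters were compared among themselves in 1 test over all 9, by the sums of each cluster and line. In it 1 of 9 members tested passed, as did 2.54% of 14776 genes. That member was Lamb2 (adjusted p = 0.0285), with cluster means from 159.5 in cluster 7 to 413 in cluster 11 and 644 in cluster 4. The cluster 11 and cluster 4 means had SDs of 402 (n = 3 lines) and 358 (n = 2), and the call was lost in 9 of 12 alternatives, with adjusted p-values up to 0.54. By line, cluster 11 ran from 162.4 to 877, the latter from 3 C57BL6 cells. Cluster 4 ran from 391 to 897, the latter from 4 PdgfrbGFP cells. Lamb1 missed the threshold (adjusted p = 0.0536) and passed in 6 of 12 alternatives, with adjusted p-values from 4.42e-04 to 0.298. It stood at 583 ± 267.97 (n = 5 lines) in cluster 6, from 292.5 to 923, and at most at 272.3 ± 137.7 (n = 3), in cluster 11, elsewhere. Cluster 6 also had the highest mean of Lama4 (311.02 ± 101.4), Lamc1 (383 ± 124.1) and Nid1 (725 ± 178.3). For none of these 3 did the test over clusters pass (adjusted p = 0.278, 0.106 and 0.286), though in sums per plate and line Lamc1 (7.64e-04) and Nid1 (0.0394) passed, as did Lama2 (0.0309). For Lama4, Lamc1 and Nid1, cluster 6 overlapped the next cluster in the order of means within 1 SD, which says nothing of clusters further down. With no block for the line the adjusted p was 0.056 for Lamb2, 0.0442 for Lamb1 and 0.00171 for Lamc3 (0.227 with it).

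In cluster 6, Lamb1 made up 64.3% ± 19.6 of the β reads per kilobase, against 37.9% ± 13.2 over the 9 clusters together. Such shares depend on the length used, since with the longest annotated transcript that of the 9 was 48.4%. The lines of cluster 6 differed widely, at 82.8% in Cspg4dsRED (3 cells), 77.5% in PdgfraGFP (30), 74% in Acta2GFP (6), 49.9% in PdgfrbGFP (130) and 37.4% in C57BL6 (19). Lamb2 made up the most of the β reads in cluster 9 (91% ± 12.4, n = 2 lines) and cluster 4 (89.9% ± 2.64, n = 2). Cluster 4, the smallest with 23 cells, had the highest mean Nid2 level, 176.7 ± 165.5. That rank rests on 4 PdgfrbGFP cells, at 293.7, while the 17 Cspg4dsRED cells stood at 59.6. In cluster 4 Nid2 made up 38.6% ± 5.81 of the nidogen reads per kilobase, against 10.7% ± 4.35 in the 9 clusters together. Elsewhere Nid2 means lay between 19.8 and 85. Perlecan ran from 107.2 ± 39.2 in cluster 4 to 395 ± 210.9 in cluster 3, and did not pass the edgeR test over clusters (adjusted p = 0.337).

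Lamc3 in fibroblasts was the matter of a handful of cells. Of 1354 fibroblasts 67 had a read and 11 had at least 10, and 9 cells held 90% of the 1786 reads. The 11 cells lay in cluster 8 (6 cells), cluster 6 (4) and cluster 3 (1), in Cspg4dsRED and PdgfrbGFP mice, on 4 plates. Fibroblast markers were read in all 11, with mean levels of 596 for Pdgfra and 1028 for Lum (300.3 and 1021 in the other 1343 fibroblasts). The means of the other 6 fibroblast markers were lower than in those cells, among them Cd34 (461 against 1020), Fbln1 (2194 against 3571) and Dcn (2792 against 3598). Of the 8 mural markers, Notch3 had a mean of 0.864 and Rgs5 one of 1.29 (0.5 and 1.45 in the others), while Des, an intermediate filament of muscle, had a mean of 190.6 (median 1.72) against 22.5 and Cspg4 one of 42.9, from 2 cells with a read, against 6.61. Acta2 (49.3 against 82.1), Tagln (11.3 against 15.8) and Myh11 (1.86 against 5.59), of the contractile apparatus, had lower means in the 11 cells than in the others. Their Lama2 level was 475 (median 435) and their Lamb1 level 487 (median 518), against 169.97 (116.5) and 216.4 (139.9) in the other fibroblasts. Because these cells were picked by Lamc3 after the counts were seen, the values are a description.

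The reporter lines were set side by side at matched clusters, as the mean over clusters 3, 6, 7 and 8 with equal weight; line, sort and plate coincide in large part, so no test was made and their parts cannot be told apart. Hspg2 stood at 143.2, 188.1 and 184.4 on the 3 PdgfrbGFP plates, at 238.03 in Acta2GFP, 368 in C57BL6 and 503 in PdgfraGFP, so all 3 other lines lay above the PdgfrbGFP plates. Nid1 did the same, at 313.1 to 434 on the PdgfrbGFP plates and at 586, 609 and 753 in C57BL6, PdgfraGFP and Acta2GFP. Nid2 went the other way, at 44.4 to 52.4 on the PdgfrbGFP plates and at 30.7, 32.1 and 43 in C57BL6, PdgfraGFP and Acta2GFP. Lama4 of the 3 other lines fell inside the range of the PdgfrbGFP plates, 135.9 to 244.2, and so did Lama2 (121.8 to 204.4) but for 212.7 in PdgfraGFP. Cspg4dsRED did not hold enough cells of the 4 clusters on a plate. Acta2GFP and PdgfrbGFP shared a plate, but elastase was added to the dissociation of Acta2GFP tissue, so line, sort and dissociation still coincide there. On that plate the ratio of Acta2GFP over PdgfrbGFP was 1.74 for Nid1, 1.49 for Lamb1, 1.39 for Lamc1, 1.27 for Hspg2 and 1.09 for Lamb2. It was below 1 for Nid2 (0.968), Lama4 (0.941) and Lama2 (0.851).

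**Figure D5:**
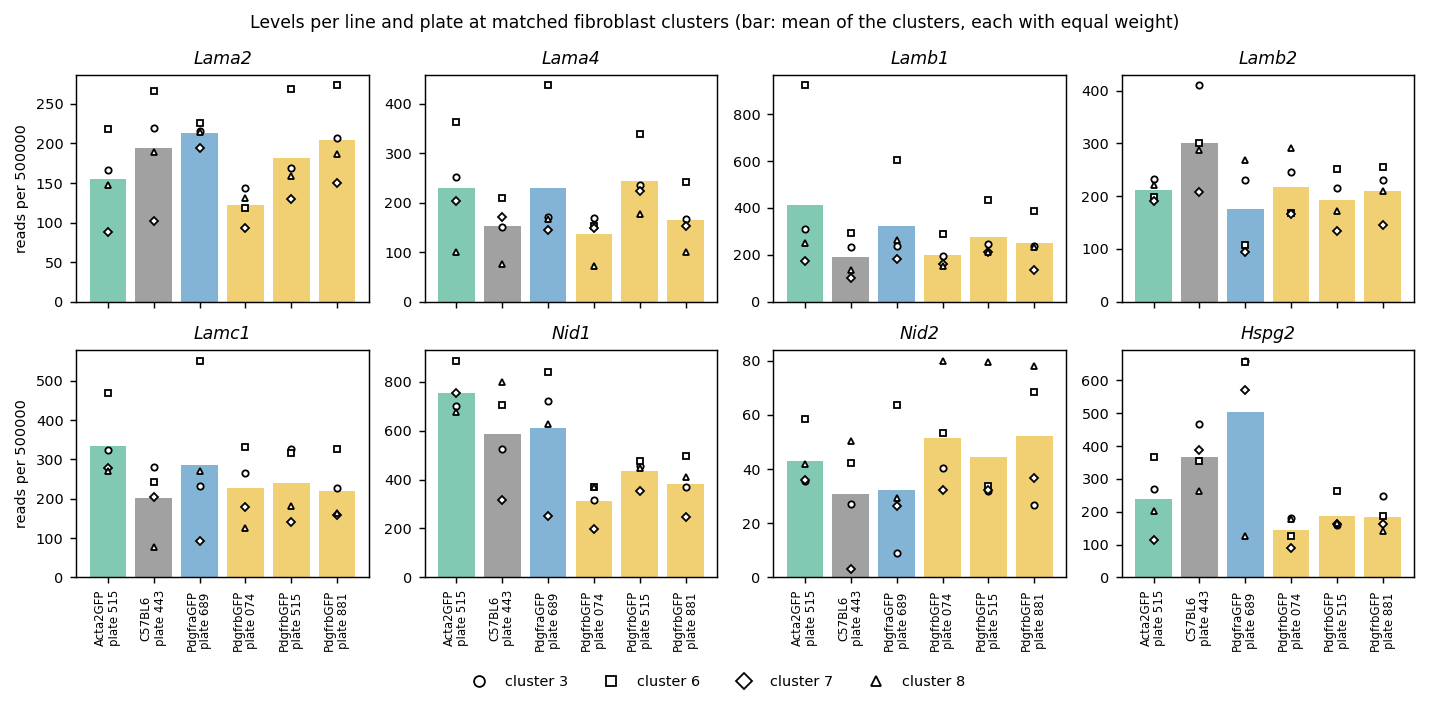
Level (y axis, reads per 500000 endogenous reads) of 8 genes per line and plate (x axis), with bars for the mean over clusters 3, 6, 7 and 8 with equal weight and symbols for each cluster. The 3 PdgfrbGFP plates lie lowest for Nid1 and Hspg2 and highest for Nid2, and cluster 6 has the highest Lamb1 symbol on every plate.

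Other basement membrane genes, a list of 45, were read from the same fits. In mural cells against fibroblasts 37 were tested, of which 5 passed upward and 5 downward (2.48% and 6.18% of all genes), with a median log2 fold change of -0.63 (-0.81 for all genes). Itga7 (log2 fold change 9.67 ± 1.22, SE), an integrin subunit that binds laminin in muscle, Tinagl1 (9.02 ± 0.52), a laminin-binding matricellular protein, and Bcam (7.41 ± 0.47), a receptor of the laminin α5 chain, were higher. Their levels were 211.4 ± 105.7, 881 ± 342.4 and 1104 ± 410 in cluster 10 (n = 4 lines) against 1.13 ± 2.00, 2.03 ± 0.739 and 7.55 ± 7.82 in fibroblasts (n = 5). Hmcn2 (-7.13 ± 1.77), a hemicentin of tissue boundaries, and Col15a1 (-5.84 ± 1.06), a basement membrane zone collagen, were lower, all with adjusted p-values under 0.05 in edgeR (2.95e-05, 2.35e-09, 8.03e-09, 0.0187 and 0.00152 in that order). In cluster 5 against the other fibroblasts none of 37 tested passed. Against cluster 10, 4 of 31 passed, where 0.88% of all genes did upward and 1.45% downward: Itga7 (-10.09), Tinagl1 (-9.93) and Bcam (-8.48) were lower in cluster 5 and Sparc (0.89), a collagen-binding matricellular protein, was higher. Among the 9 fibroblast clusters 4 of 40 passed, against 2.54% of all genes. Lama1, Lama3 and Lamb3, further laminin chains, had mean levels under 2 in each of the 3 classes.

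Over 43 sums of a cluster and a line, the genes whose scaled log2 counts ran most like a member were sought among 9848 genes with a mean of at least 10; the sums share libraries and lines, so r is a description. Lama5 ran closest to Gm13861 (Pearson r = 0.967), Cox4i2 (0.964) and Cacna1h (0.959), genes high in cluster 10 as it was. Lama2 ran with Mmp23 (0.887), Hsd11b1 (0.835) and Col3a1 (0.761), Lama4 with Pdgfra (0.727), Dpep1 (0.726) and Rab3il1 (0.69), and Lamb1 with Fndc3a (0.87), Steap3 (0.821) and Gm13372 (0.81). Lamc1 ran with Fbln5 (0.717), Spon2 (0.716) and Col5a1 (0.676), and Nid1 with Matn2 (0.8), Dpep1 (0.782) and Lrp1 (0.779). For Nid2 the nearest were A830012C17Rik (0.812), 9430069I07Rik (0.783) and Omd (0.779), and for Lamc3 Rgs7bp (0.747), Kcnab1 (0.714) and Dgkb (0.709). Lamb2 and Hspg2 had no near partner, with best values of 0.672 for Mlf2 and 0.63 for Sec61a1. Among the members themselves r was highest for Lama4 with Nid1 (0.615) and lowest for Lama5 with Lamb1 (-0.665).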

How the data were processed

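Single cells of 6 plates (125 of cluster 10, and 129, 203 and 147 in all from Acta2GFP, Cspg4dsRED and PdgfraGFP) were sequenced by Smart-seq2 with ERCC spike-in RNA. The authors deposited read counts, not normalized, for each gene in each cell, made with TopHat2 on Bowtie or Bowtie2 and with featureCounts on GRCm38 (mm10), after removing duplicates and poor cells; the strand setting is not given in the sources used here. Reads per cell ran from 50276 to 1446059. Names and lengths came from GENCODE, and promoters from RefSeq. Levels are reads per 500000 endogenous reads, and log2 fold changes do not compare genes.

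Counts were summed over the cells of a class and line (at least 3) and tested with edgeR 4.0.16 (TMM, its filter on low counts, line as block, quasi-likelihood test, Benjamini-Hochberg adjustment over all genes tested, R 4.3.3). DESeq2 1.42.0, other scalings, filters, sums and lines left out were alternatives. Lines were paired because a line is the same strain in each class. Labels name no animal, so a p measures the spread between lines, which may be technical. The fits were tested on simulated data, where they missed most changes of the smallest size drawn and, in every comparison, many larger ones, so a gene that did not pass is not shown to be alike in 2 groups. Named were all 10 genes, the 3 genes most like each by Pearson correlation, and up to 5 other basement membrane genes per comparison. The members, lists and tests were chosen with earlier results of these data known. Doublets were not called here.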

Additional observations from a re-analysis of the deposited data

Results flagged for a closer look

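Within a group of 4 or 5 lines, 12 of 85 groups of line levels held a line far from the others by Dixon's test. Some groups share cells and the line means rest on unequal numbers of cells. The count can therefore not be set against the 1 in 20 that the test allows by chance. In cluster 10 the line was C57BL6, with 3 cells, in each case: its Lama2 level was 131.4 (10.5 to 22.2 in the other lines), its Lama5 level 785 (157.98 to 214.7) and its Nid1 level 272.6 (4.85 to 49.5). Cspg4dsRED stood apart for Lamc3, at 227.9 in cluster 8 (0 to 4.92), 23.1 in the fibroblast clusters together (0 to 1.92) and 23.6 in the 9 without cluster 5 (0 to 2), for Lama2 in cluster 8, at 432 (147.3 to 214.8), and for Nid2 in cluster 6, at 202.1 from 3 cells (42.2 to 63.5). Acta2GFP stood apart for Lamb1 in cluster 3, at 309.1 (222.8 to 237.3), and for Nid1 in cluster 7, at 755 (at most 316.8). C57BL6 did so for Lamb2 in cluster 3, at 410 (at most 233.2), and PdgfraGFP for Lama2 in cluster 7, at 193.7 (87.7 to 115.3). The part of line, sort, plate and cell number in these values was not tested.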

How the results depend on the processing

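As shares of the genes tested in each fit, 8.66% passed for cluster 10 against the fibroblasts, against 21% in DESeq2, 14% in sums per plate and line and 3.25% to 7.4% with 1 line left out (3.25% without Cspg4dsRED, 3.88% without PdgfrbGFP, 4.52% without Acta2GFP). For cluster 5 against the other fibroblasts 1.08% passed, against 9.68% in DESeq2, 5.69% in sums per plate and line, 2.48% with thinned cells, 0.791% to 1.51% with 1 line left out, and 0.907% with no filter on low counts, which is a higher count out of more genes. Among the fibroblast clusters 2.54% passed, against 6.09% in DESeq2, 6.33% in sums per plate and line, 1.15% with at least 10 cells per sum and 0.324% to 1.77% with 1 line left out (0.324% without PdgfrbGFP, 0.483% without C57BL6, 1.01% without Acta2GFP). For cluster 5 against cluster 10 2.33% passed, against 6.11% in DESeq2, 4.67% in sums per plate and line and 1.16% to 2.36% with 1 line left out (1.16% without Cspg4dsRED, 1.34% without PdgfrbGFP). The causes were not tested. With the replicate block left out, so that the lines were not paired, 11%, 2.6%, 7.26% and 3.09% passed in the 4 comparisons. Sums of 1 line in 2 classes deviated together only weakly, with correlations between -0.144 and 0.28. Of the values of single members in the 4 comparisons under these alternatives, 400 stayed on their side of the threshold, 31 were lost, 18 were gained and none that had passed turned sign. A minimum of 10 cells left too few lines for cluster 5 against cluster 10, and it left cluster 10 without C57BL6. Cluster 10 sums held 470928 to 9073445 reads, and the part of this depth in the calls was not tested.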
